A study of Mus musculus with 2 samples.

Results

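The EGF-family ligands Areg, Ereg, Hbegf, Tgfa, Btc and Nrg1 and the ERBB receptors Egfr, Erbb2, Erbb3 and Erbb4 were followed through the cell classes of the adult mouse mammary gland. The 10 genes were taken by symbol from the 31053 genes counted, and all 10 were found. Single-cell RNA-seq had been made from 1 library of mice called cKO and 1 library of mice called Ctrl. Mice of cKO carried K8-CreERT2, a tamoxifen-inducible Cre recombinase under the promoter of keratin 8 (a luminal keratin), together with miR-200c/141-flox/flox, in which loxP sites flank both copies of a microRNA locus. Mice of Ctrl were miR-200c/141-flox/flox without the Cre. Both groups were C57BL/6, both received tamoxifen at 8 to 10 weeks of age, and glands were taken 4 weeks later, although 8 weeks is given as their age. Mammary cells were enriched by FACS, and the number of mice pooled in each library is not given in the sources used here. The series asks how loss of the locus changes gene expression in mammary cells.

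ERBB receptors are tyrosine kinases that pair on binding a ligand and signal through the RAS and MAP kinase chain. Amphiregulin (Areg), transforming growth factor alpha (Tgfa) and epigen (Epgn) bind EGFR, heparin-binding EGF-like growth factor (Hbegf), betacellulin (Btc) and epiregulin (Ereg) bind EGFR and ERBB4, and neuregulin 1 (Nrg1) binds ERBB3 and ERBB4. ERBB2 has no known ligand and acts as a partner, and ERBB3 signals through its partners because its own kinase is weak. In the mouse gland amphiregulin is known as the estrogen-induced signal that hormone-sensing luminal cells release and that acts through EGFR on neighbouring cells.

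The microRNAs at the targeted locus are shown because both groups are defined by that locus, whose mature sequences span chr6:124717917-124718346, minus strand, in GRCm38.p6. The sequences are RefSeq's, 5′ to 3′, and the capitals mark the seed, bases 2 to 8.
mmu-miR-200c-3p: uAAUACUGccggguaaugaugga
mmu-miR-141-3p: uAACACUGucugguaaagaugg
The seeds differed at 1 base. MicroRNAs were not among the counted genes, so the deletion itself could not be checked in these libraries.

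After filtering, cKO held 5435 cells with 101171939 unique molecular identifiers (UMIs, counted mRNA molecules) and a median of 13917 UMIs per cell, and Ctrl held 3407 cells with 93561131 UMIs and a median of 19843. Cells were classed from marker genes, none of them an EGF-family gene. This gave 1290 cKO and 541 Ctrl hormone-sensing-like cells, 1131 and 673 luminal-progenitor-like cells, 965 and 1074 basal-like (myoepithelial) cells and 419 and 103 blood-endothelial-like cells. A further 1350 cKO and 929 Ctrl luminal cells carried both luminal marker sets and were deeper, with medians of 28126.5 and 47401 UMIs, so they were kept apart. The libraries stood apart within classes: in a clustering made without the EGF-family genes, 999 cKO and 2 Ctrl cells shared the main cKO hormone-sensing-like cluster, while the main Ctrl one held 0 cKO and 509 Ctrl cells. The basal-like clusters held 882 cKO and 112 Ctrl cells and 102 cKO and 970 Ctrl cells, and 1 luminal-progenitor-like cluster held 1113 cKO and 721 Ctrl cells. The libraries had 5 cell barcodes in common. Levels are UMIs per 1000000 UMIs of a class (CPM), with 95% Poisson intervals in brackets. With 1 library per group no test between groups was possible: intervals cover counting error only, and genotype, mice and library cannot be told apart.

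The ligands and receptors were led by different cell classes, and both libraries gave the same leading class for 8 of the 10 genes. Among 12175 genes with at least 100 UMIs, 75.4% had the same leading class of 4 in both libraries, so the agreement for the 10 genes was near that of all genes. Hormone-sensing-like cells led for Areg and Erbb3 (26.8% of all genes), luminal-progenitor-like cells for Hbegf, Egfr and Erbb4 (11.1%), and basal-like cells for Ereg, Tgfa and Nrg1 (23.7%). No EGF-family gene was led by blood-endothelial-like cells in both libraries (13.8% of all genes). Btc and Erbb2 changed place between the luminal classes. Areg, Ereg and Nrg1 stood at least 10-fold above the next class in both libraries, against 5.62% of all genes.

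**Figure D1:**
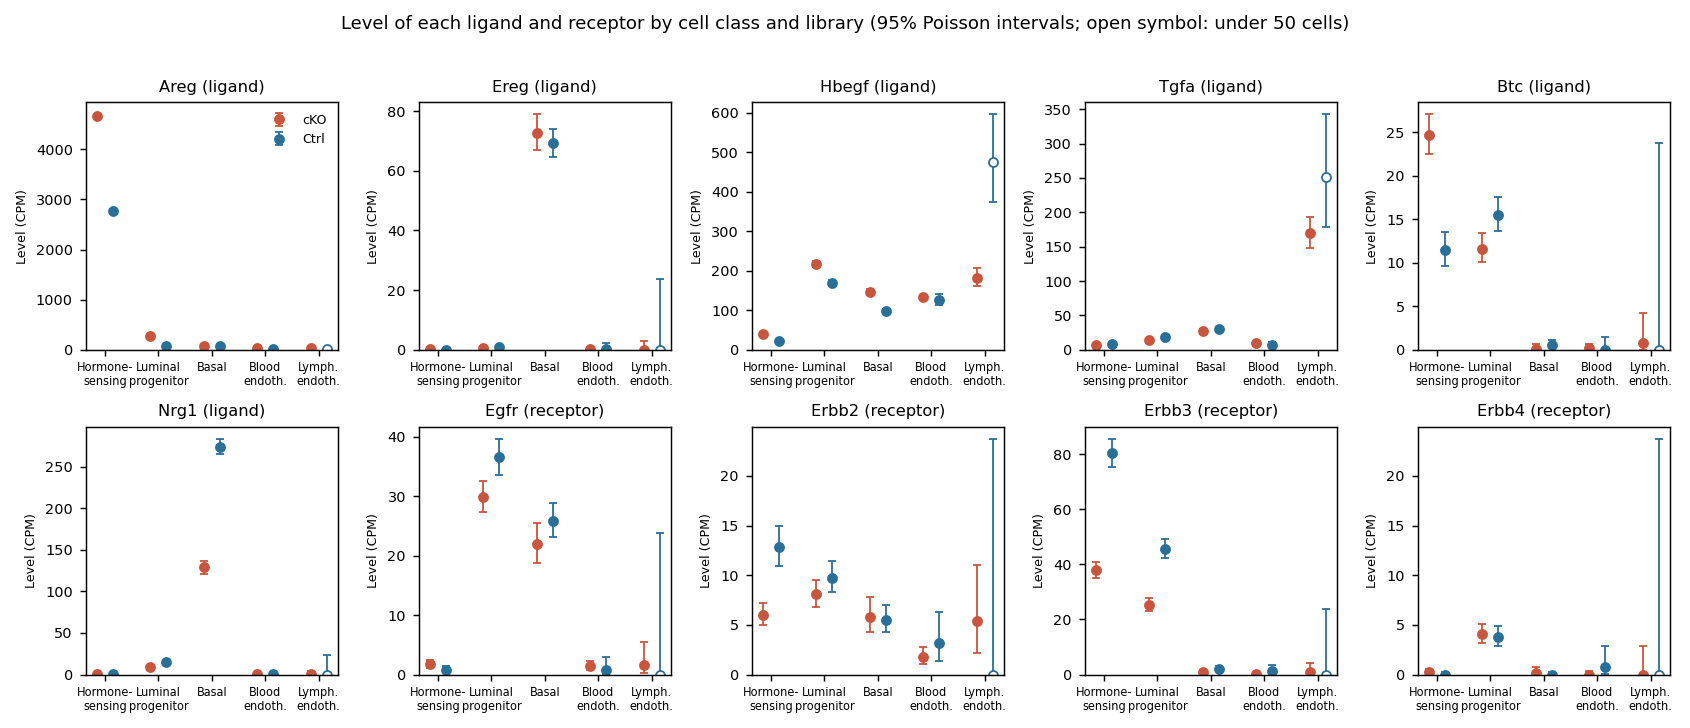
Level of each ligand and receptor (CPM, linear axis from 0) in 5 cell classes, with cKO in red to the left of Ctrl in blue; bars are 95% Poisson intervals and open symbols mark classes of under 50 cells. Areg reached 4669 CPM in cKO and 2770.3 CPM in Ctrl hormone-sensing-like cells, Ereg and Nrg1 stood highest in basal-like cells, and Egfr was near 0 in hormone-sensing-like cells.

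Areg, the ligand of the hormone-sensing cell, stood at 4669 CPM (4638 to 4700.2) in cKO and 2770.3 CPM (2741 to 2799.7) in Ctrl hormone-sensing-like cells. The next class, luminal-progenitor-like cells, had 283 CPM in cKO and 76.2 CPM in Ctrl, a level 16.5-fold below hormone-sensing-like cells in cKO and 36.4-fold below in Ctrl. Basal-like cells had 75.8 CPM in cKO and 71.0 CPM in Ctrl, so that in Ctrl the basal-like and luminal-progenitor-like levels did not differ beyond counting error (ratio 0.984 to 1.17). Blood-endothelial-like cells were lowest, with 27.2 CPM in cKO and 11.7 CPM in Ctrl. Cells with both luminal sets lay between, at 2654 CPM in cKO and 1345 CPM in Ctrl.

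Areg was found in most hormone-sensing-like cells, though unevenly. The 10% of cells with the most Areg UMIs held 39.7% of these UMIs in cKO and 41.0% in Ctrl. The 10th, 50th and 90th percentiles over all hormone-sensing-like cells were 135, 3164 and 10793 CPM in cKO and 180, 1844 and 6589 CPM in Ctrl. Cells above 1000 CPM made up 72.9% of cKO and 66.4% of Ctrl hormone-sensing-like cells, while cells with no Areg UMI made up 6.67% and 3.33%. These shares were not matched for depth, which had a median of 12713.5 UMIs per cell in cKO and 20695 in Ctrl. The upper part of the distribution was higher in cKO and the 10th percentile was not. In luminal-progenitor-like cells the median was 41.1 CPM in cKO and 0 in Ctrl, and 44 cKO cells and 3 Ctrl cells passed 1000 CPM.

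**Figure D2:**
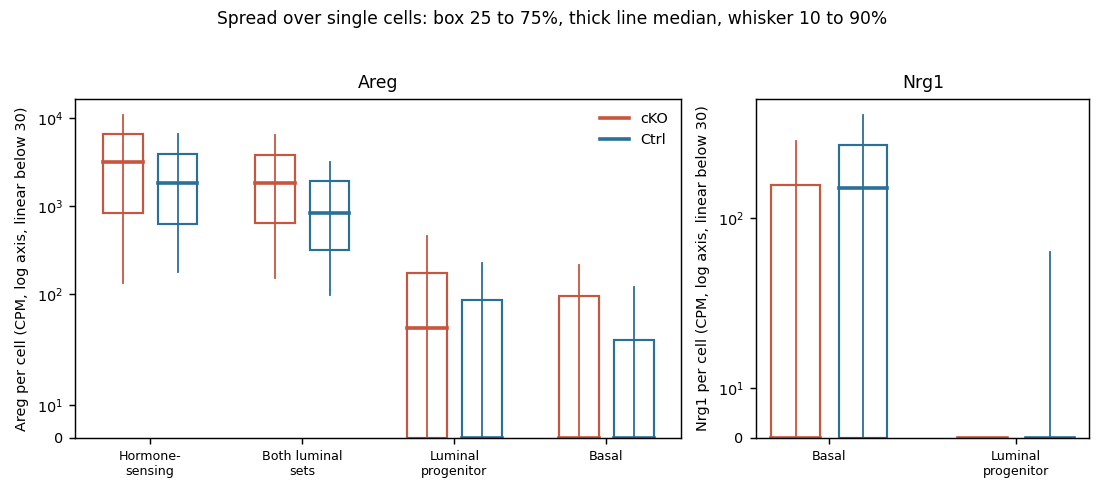
Areg and Nrg1 per cell (CPM on a log axis that is linear below 30) in cKO (red, left) and Ctrl (blue, right): thick lines are medians, boxes the 25th to 75th and whiskers the 10th to 90th percentiles over cells. The Areg median in hormone-sensing-like cells was 3164 CPM in cKO and 1844 CPM in Ctrl, and the Nrg1 median in basal-like cells was 0 in cKO and 168 CPM in Ctrl. Cells were not matched for depth: basal-like cells had medians of 7276 UMIs in cKO and 10280 in Ctrl. An Nrg1 UMI was found in 44.8% of the cKO and 72.0% of the Ctrl basal-like cells, and the summed levels were 129 and 274 CPM.

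Epgn, Ereg, Areg and Btc are neighbours, the 4 protein-coding genes of a 375.5 kb stretch, chr5:91027464-91402994 in GRCm38, yet they were read in different classes. Epgn, like Areg, was led by hormone-sensing-like cells, at 310 CPM in cKO and 135 CPM in Ctrl. Btc, at the far end, was found in both luminal classes: hormone-sensing-like cells had 24.7 CPM in cKO and 11.5 CPM in Ctrl, and luminal-progenitor-like cells had 11.6 CPM in cKO and 15.5 CPM in Ctrl. Ereg, between Epgn and Areg, was a basal-like gene, with 72.7 CPM (66.8 to 79.0) in cKO and 69.2 CPM (64.7 to 74.0) in Ctrl basal-like cells and at most 1.01 CPM in the other 3 classes. Basal-like cells held 85.2% of the Ereg UMIs of cKO and 92.6% of those of Ctrl.

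**Figure D3:**
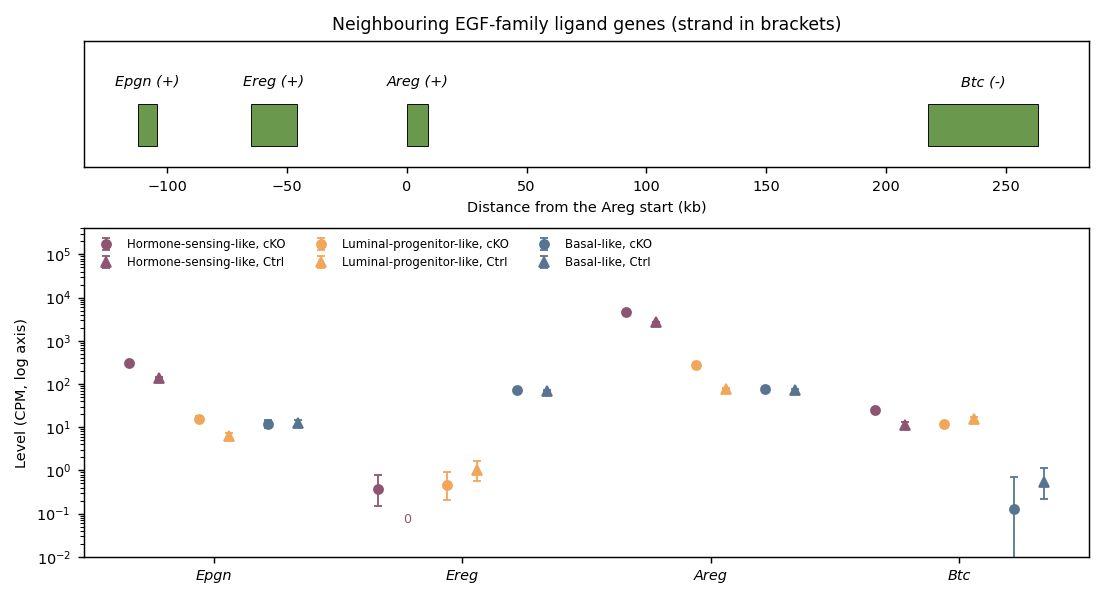
Top, positions of the neighbouring ligand genes in kb from the start of Areg, with strand; bottom, their levels (CPM, log axis) in hormone-sensing-like (purple), luminal-progenitor-like (orange) and basal-like (blue) cells, with circles for cKO, triangles for Ctrl and 95% Poisson intervals. Areg and Epgn were highest in hormone-sensing-like cells and Ereg in basal-like cells; the digit 0 marks a class without a UMI.

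The 100 bases before the start of Areg are shown because it was the highest ligand, beside those of Errfi1, a receptor inhibitor described further on, since both held the same pair of motifs. They are RefSeq's, on the plus strand of GRCm38.p6, and the capitals mark the cAMP response element TGACGTCA and the TATA box TATAAA.
Areg, chr5:91139499-91139598: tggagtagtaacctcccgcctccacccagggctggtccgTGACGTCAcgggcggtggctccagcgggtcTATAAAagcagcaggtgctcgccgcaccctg
Errfi1, chr4:150854970-150855069: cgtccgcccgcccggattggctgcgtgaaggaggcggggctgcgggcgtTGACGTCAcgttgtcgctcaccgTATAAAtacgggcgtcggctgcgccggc
The response element began 61 bases before the start of Areg and 51 bases before that of Errfi1, and the TATA box 31 and 28 bases before. Errfi1 has 2 windows in the table, and the other one, chr4:150853546-150853845, at the more upstream start, held neither motif. The window of Epgn held a TATA box 86 bases before its RefSeq start and no response element. Searched on both strands, TGACGTCA occurred in 1.79% of 32851 promoter windows of 300 bases, and TATAAA, on the gene's strand, in 8.32%. Of the 10 EGF-family genes, 6 had a promoter window in the table. None of the 6 held the AP-1 letters TGANTCA (7.81% of windows) on either strand, nor the consensus estrogen response element (0.0700%); these letters are a description of the windows only.

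Hbegf, a membrane-anchored ligand that is shed from the cell surface, was the most widely spread ligand. Luminal-progenitor-like cells had 217 CPM (210.5 to 225) in cKO and 169 CPM (163 to 176) in Ctrl. Basal-like cells had 146 CPM in cKO and 98.2 CPM in Ctrl, blood-endothelial-like cells 133 CPM in cKO and 127 CPM in Ctrl, and hormone-sensing-like cells 39.8 CPM in cKO and 22.8 CPM in Ctrl. The step from luminal-progenitor-like to the next class was 1.49-fold in cKO and 1.33-fold in Ctrl. With every cell given the same weight, blood-endothelial-like cells led in Ctrl. Outside the 4 classes, lymphatic-endothelial-like cells had 183 CPM in cKO and 476 CPM in Ctrl, from 239 and 74 UMIs, and fibroblast-like cells 284.99 CPM in cKO and 43.8 CPM in Ctrl, from 93 and 7 UMIs.

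Tgfa was low in the epithelium, at 26.8 CPM in cKO and 29.6 CPM in Ctrl basal-like cells, 14.2 CPM in cKO and 18.1 CPM in Ctrl luminal-progenitor-like cells and 6.40 CPM in cKO and 8.39 CPM in Ctrl hormone-sensing-like cells. Outside the 4 classes, lymphatic-endothelial-like cells had 169 CPM (148 to 193) in cKO and 251 CPM (178 to 343) in Ctrl, from 102 cKO cells and 10 Ctrl cells. The Ctrl value rests on 39 UMIs, so this class is described and not compared.

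Nrg1, the ligand of ERBB3 and ERBB4, was a basal-like gene, with 129 CPM (121 to 137) in cKO and 274 CPM (265 to 283) in Ctrl. Luminal-progenitor-like cells followed with 8.55 CPM in cKO and 14.8 CPM in Ctrl, a level 15.1-fold below basal-like cells in cKO and 18.5-fold below in Ctrl. Hormone-sensing-like cells had 0.753 CPM in cKO and 0.646 CPM in Ctrl. Basal-like cells held 71.1% of the Nrg1 UMIs of cKO and 83.8% of those of Ctrl.

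Egfr, the receptor of amphiregulin, was nearly absent from the cells that led for Areg. Luminal-progenitor-like cells had 29.9 CPM (27.4 to 32.6) in cKO and 36.5 CPM (33.6 to 39.6) in Ctrl, and basal-like cells 22.0 CPM (18.8 to 25.6) in cKO and 25.9 CPM (23.1 to 28.8) in Ctrl. Hormone-sensing-like cells had 1.72 CPM (1.18 to 2.43) in cKO and 0.807 CPM (0.387 to 1.48) in Ctrl. Both an Areg and an Egfr UMI were found in 24 of 1290 cKO and 8 of 541 Ctrl hormone-sensing-like cells. These shares, 1.86% and 1.48%, were near the 1.88% and 1.43% that unrelated genes would give, so they reflect how rare Egfr was there. In luminal-progenitor-like cells both were found in 202 of 1131 cKO and 173 of 673 Ctrl cells. Among the 29 cKO and 9 Ctrl fibroblast-like cells Egfr stood at 98.1 CPM in cKO and 37.5 CPM in Ctrl, from 32 and 6 UMIs.

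Erbb3, the neuregulin receptor, was luminal. Hormone-sensing-like cells had 37.9 CPM (35.2 to 40.8) in cKO and 80.4 CPM (75.5 to 85.6) in Ctrl, and luminal-progenitor-like cells 25.3 CPM (23.0 to 27.9) in cKO and 45.7 CPM (42.4 to 49.1) in Ctrl. Basal-like cells, which led for its ligand Nrg1, had 0.776 CPM in cKO and 2.13 CPM in Ctrl.

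Erbb2, the partner receptor, was low in every epithelial class: 6.02 CPM in cKO and 12.8 CPM in Ctrl hormone-sensing-like cells, 8.08 CPM in cKO and 9.77 CPM in Ctrl luminal-progenitor-like cells, and 5.82 CPM in cKO and 5.52 CPM in Ctrl basal-like cells. Erbb4, a receptor of neuregulins and of several EGF-family ligands, was found in luminal-progenitor-like cells at 4.04 CPM (3.14 to 5.11) in cKO and 3.78 CPM (2.88 to 4.87) in Ctrl. Hormone-sensing-like cells held 4 Erbb4 UMIs in cKO and 0 in Ctrl.

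Cells with both luminal sets took levels between those of the 2 single-set luminal classes for 9 of the 10 genes in cKO, all but Ereg, and for 8 in Ctrl, all but Btc and Erbb2. The share of all genes that lay between was not counted, so these numbers describe the 10 genes and set them apart from no others. Cells with both luminal sets were deeper than either class, and whether they are single cells was not tested.

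Depth differed between libraries and classes, so shares of cells were read after every cell was thinned to 1000 UMIs. Thinning evens depth and does not remove free RNA, which in droplet data gives UMIs in cells that do not make a gene. It left out 5 cKO and 2 Ctrl hormone-sensing-like cells and 1 cKO and 0 Ctrl luminal-progenitor-like cells. Also left out were 2 cKO and 6 Ctrl basal-like cells and 1 cKO and 1 Ctrl blood-endothelial-like cell. Areg was then found in 75.7% (73.3 to 78.0, Clopper-Pearson) of cKO and 70.3% (66.3 to 74.1) of Ctrl hormone-sensing-like cells, and unthinned in 93.3% and 96.7%. The thinned share in blood-endothelial-like cells, given as the background, was 2.87% (1.49 to 4.96) in cKO and 0 of 102 cells in Ctrl (0 to 3.55), at unthinned medians of 23563 and 20774 UMIs. Nrg1 was found in 9.55% (7.77 to 11.6) of thinned cKO and 18.4% (16.2 to 20.9) of thinned Ctrl basal-like cells, and in 44.8% and 72.0% unthinned. Among thinned blood-endothelial-like cells Nrg1 was found in 0 of 418 cKO cells (0 to 0.879%) and 0 of 102 Ctrl cells (0 to 3.55%). Erbb3 was found in 3.19% (2.30 to 4.30) of thinned cKO and 8.16% (5.99 to 10.8) of thinned Ctrl hormone-sensing-like cells, in 37.8% and 68.2% unthinned, and in 0.208% and 0.281% of thinned basal-like cells.

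Between the libraries Areg, Hbegf and Btc were higher in cKO hormone-sensing-like cells, and Erbb2 and Erbb3 were lower. A gene was counted as higher or lower where its CPM ratio passed 1.5-fold with at least 20 UMIs in the class. In hormone-sensing-like cells 4 of 8 genes were higher in cKO, against 14.8% of all genes, and 2 were lower, against 17.7%. Areg was 1.69-fold higher (1.66 to 1.71), Hbegf 1.74-fold higher (1.52 to 2.01) and Btc 2.16-fold higher (1.78 to 2.62). Egfr was 2.13-fold higher (1.02 to 4.86), from 32 UMIs in cKO and 10 in Ctrl. Erbb2 was 2.13-fold lower (1.66 to 2.74) and Erbb3 2.12-fold lower (1.92 to 2.34). Tgfa and Nrg1 did not pass 1.5-fold. The median log2 ratio of the 8 genes was 0.49, against -0.05 for all genes.

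The summed level of the 10 hormone-sensing markers that defined these cells was itself lower in cKO, at 2790 CPM against 4440 CPM in Ctrl, with all 10 markers detected in both. The fall was not shared by the whole list. Most of it lay in Cited1, and Wnt4, Foxa1 and Tnfsf11 were also lower in cKO. Pgr was about equal, and Prlr, Esr1, Prom1, Tbx3 and Stc2 were higher in cKO. Fibroblast markers summed to 310 CPM in cKO and 455 CPM in Ctrl in these cells, from only part of that list. In cKO 5 of the 7 had a UMI, with Lum and Dpt at 0. In Ctrl 3 of the 7 did, with Col1a2, Col3a1, Lum and Dpt at 0. The part of either marker list in the results was not tested. With classes taken from clusters, Areg fell below the threshold (log2 ratio 0.58, against 0.75 with the marker gate). Under a stricter gate Areg and Btc passed 1.5-fold and Hbegf did not (log2 ratio 0.30), while Egfr, with a log2 ratio of 2.12, had under 20 UMIs and was not counted.

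**Figure D4:**
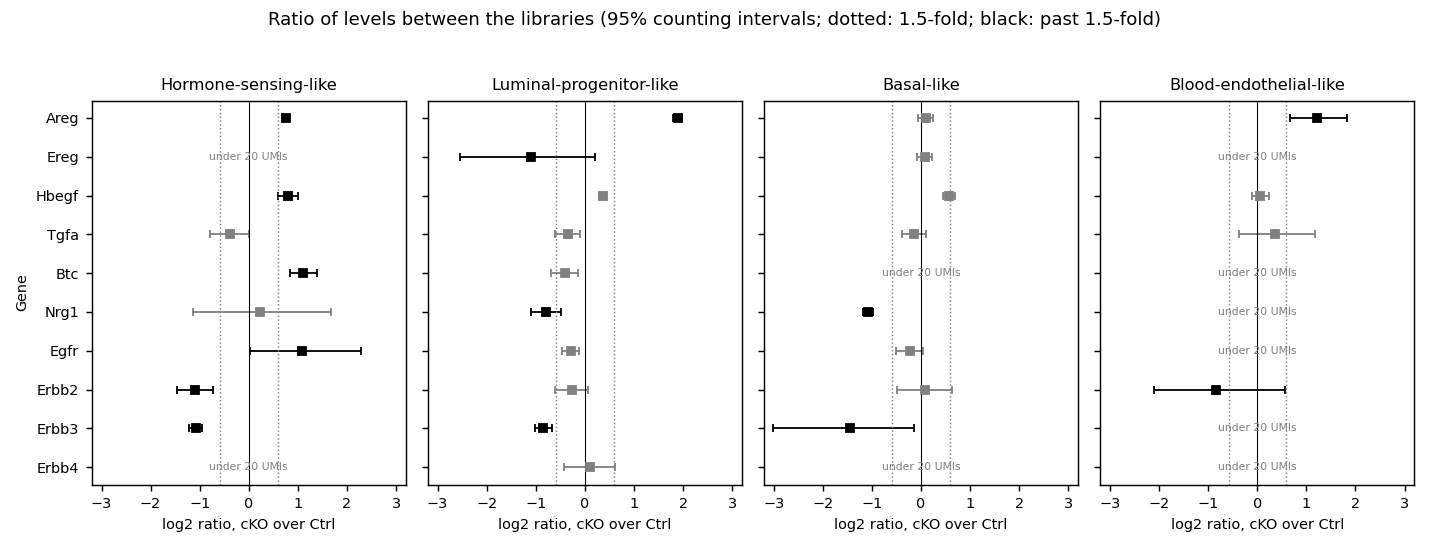
Log2 ratio of levels, cKO over Ctrl, for the 10 genes in 4 cell classes, with 95% counting intervals; dotted lines mark 1.5-fold, black symbols lie past it and grey ones do not. Areg lay to the right in both luminal classes, Erbb3 lay to the left in all 3 epithelial classes, and Nrg1 lay to the left in basal-like and luminal-progenitor-like cells.

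In luminal-progenitor-like cells Areg was 3.71-fold higher in cKO (3.49 to 3.96), the 1 gene of 10 that was higher, against 6.93% of all genes. Lower were 3, against 13.4% of all genes: Nrg1, with a log2 ratio of -0.79 (-1.10 to -0.49), Erbb3, with -0.85 (-1.02 to -0.68), and Ereg, whose 8 UMIs in cKO and 16 in Ctrl leave an interval that spans 1. The median log2 ratio of the 10 genes was -0.32, against -0.11 for all genes. The Areg level of these cells was 6.06% of the hormone-sensing-like level in cKO and 2.75% in Ctrl. The summed hormone-sensing markers were at 124 CPM in cKO, with Tnfsf11 at 0, and at 106 CPM in Ctrl. On the scale used for Areg, that was 4.45% of their hormone-sensing-like level in cKO and 2.38% in Ctrl. The hormone-sensing-like sum used as the base was itself lower in cKO, at 2790 CPM against 4440 CPM in Ctrl. Single markers went both ways. Prlr was at 3.38% in cKO and 1.92% in Ctrl, and Pgr, Foxa1, Prom1, Cited1 and Wnt4 were also higher in cKO on this scale. Esr1, at 5.57% in cKO and 6.13% in Ctrl, was lower in cKO, as were Tbx3, Stc2 and Tnfsf11. The part of these markers in the Areg result was not tested. With classes from clusters the log2 ratio of Areg was 0.84, against 1.89 with the marker gate.

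In basal-like cells 0 of 8 genes were higher in cKO, against 9.5% of all genes, and 2 were lower, against 8.93%. Nrg1 was 2.13-fold lower (1.98 to 2.28). In single basal-like cells its 75th and 90th percentiles were 178 and 372 CPM in cKO and 349 and 583 CPM in Ctrl. Median depth of these cells was 7276 UMIs in cKO and 10280 in Ctrl. Erbb3 was the other lower gene, from 6 UMIs in cKO and 27 in Ctrl. Areg, Ereg, Tgfa, Egfr and Erbb2 had ratios whose intervals spanned 1, and Hbegf was 1.49-fold higher (1.37 to 1.61), just short of the threshold. The median log2 ratio of the 8 genes was -0.04, against 0.03 for all genes. Markers of other classes also differed in basal-like cells: the 6 general luminal markers summed to 5130.3 CPM in cKO and 4005 CPM in Ctrl, the luminal progenitor markers were at 279 CPM in cKO and 936 CPM in Ctrl, and the fibroblast markers at 81.3 CPM in cKO and 192 CPM in Ctrl. The 10 basal markers summed to 22921 CPM in cKO and 20221 CPM in Ctrl. The part of these markers in the Nrg1 result was not tested. Nrg1 itself stood at 46.0 CPM in cKO and 18.8 CPM in Ctrl fibroblast-like cells. These levels rest on 15 UMIs in 29 cKO cells and on 3 UMIs, all in 1 cell, among 9 Ctrl cells.

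In blood-endothelial-like cells 4 genes had at least 20 UMIs. Areg was higher, against 17.9% of all genes, with 287 UMIs in cKO and 29 in Ctrl, and Erbb2 was lower, against 12.3%, with 19 UMIs in cKO and 8 in Ctrl and an interval that spans 1. The Areg difference turned round when classes were taken from clusters, to a log2 ratio of -1.37. In cells with both luminal sets 3 of 10 genes were higher in cKO, against 11.4% of all genes: Areg, 1.97-fold (1.95 to 1.99), Hbegf, 1.55-fold (1.48 to 1.62), and Ereg, with 39 UMIs in cKO and 28 in Ctrl and an interval that spans 1. Lower were 3, against 17.3%: Erbb3, 2.14-fold (2.01 to 2.27), Erbb2, 1.83-fold (1.59 to 2.10), and Nrg1, 1.57-fold (1.31 to 1.89).

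The other ligands of the family were sparse apart from Epgn. Epgn was 2.29-fold higher in cKO (2.17 to 2.42) in hormone-sensing-like cells. Luminal-progenitor-like cells had 15.9 CPM of Epgn in cKO and 6.17 CPM in Ctrl, a log2 ratio of 1.36, which turned to -0.17 in cells whose marker gate and cluster carried the same name. Nrg4, a ligand of ERBB4, was also led by hormone-sensing-like cells and was lower in cKO there, with 15.5 CPM in cKO and 24.2 CPM in Ctrl. Nrg2 was led by basal-like cells, with 2.59 CPM in cKO and 9.70 CPM in Ctrl, 3.75-fold lower in cKO (2.32 to 6.35). Egf had 7 UMIs in cKO and 3 in Ctrl over the 4 classes, and Nrg3 had 0 in both.

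Among the genes that release ligands and restrain receptors, only Errfi1 passed 1.5-fold in all 3 epithelial classes. ADAM17 is the protease that sheds most of these ligands, and the inactive rhomboids Rhbdf1 and Rhbdf2 carry it to the cell surface. None of the 4 release genes passed 1.5-fold in hormone-sensing-like or basal-like cells. Of all genes, 14.8% were higher and 17.7% lower in the former, and 9.5% and 8.93% in the latter. Adam17, 1.71-fold, and Rhbdf2, 1.59-fold, were lower in cKO luminal-progenitor-like cells, against 13.4% of all genes. Errfi1 encodes MIG6, an inhibitor that binds the EGFR kinase and is itself induced by EGFR signalling. It stood at 207 CPM in cKO and 114 CPM in Ctrl hormone-sensing-like cells, at 577 CPM in cKO and 222 CPM in Ctrl luminal-progenitor-like cells and at 528 CPM in cKO and 191 CPM in Ctrl basal-like cells. The ratios were 1.82 (1.72 to 1.94), 2.59 (2.49 to 2.70) and 2.76 (2.62 to 2.90), so that it was higher in cKO in all 3 epithelial classes. Errfi1 stayed past 1.5-fold in them under the 12 alternatives, of which those that changed only the UMI minimum could not move a ratio. Socs3, an inhibitor of cytokine signalling, was higher in cKO in hormone-sensing-like cells, 1.76-fold, and in basal-like cells, 2.20-fold. Cblb, a ubiquitin ligase that removes active receptors, was 2.15-fold lower in cKO basal-like cells. Of the restraint genes counted, 2 of 6 were higher in hormone-sensing-like cells, against 14.8% of all genes, and 1 of 7 in luminal-progenitor-like cells, against 6.93%. In basal-like cells 2 of 7 were higher, against 9.5%, and 1 was lower, against 8.93%.

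Adaptors and the MAP kinase core were counted against the same shares of all genes, 14.8% higher and 17.7% lower in hormone-sensing-like, 6.93% and 13.4% in luminal-progenitor-like and 9.5% and 8.93% in basal-like cells. Of 14 genes, 1 was higher (Grb2, 1.76-fold) and 2 lower (Shc1, 1.71-fold, and Sos1, 1.55-fold) in cKO hormone-sensing-like cells, and 0 passed 1.5-fold in luminal-progenitor-like or basal-like cells. Of 12 genes known to respond to ERK, 4 were higher and 2 lower in cKO hormone-sensing-like cells, against the 14.8% and 17.7% given above. Dusp5, an ERK phosphatase, was 3.48-fold higher and Phlda1 2.54-fold higher, while the transcription factor gene Etv5 was 1.86-fold lower, from 42 UMIs in cKO and 52 in Ctrl. In luminal-progenitor-like cells 2 were higher, Spry2 at 1.70-fold and Ier3 at 1.62-fold, and 2 were lower, Etv4 and Etv5. In basal-like cells Spry2, a feedback inhibitor of the pathway, was 1.95-fold higher, while Dusp4, 2.76-fold, Etv5, 2.59-fold, and Phlda1, 1.68-fold, were lower. The list thus held genes past the threshold in both directions in each epithelial class. Its median log2 ratio was 0.31 in the hormone-sensing-like class, 0.06 among luminal-progenitor-like cells and -0.04 among basal-like cells.

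**Figure D5:**
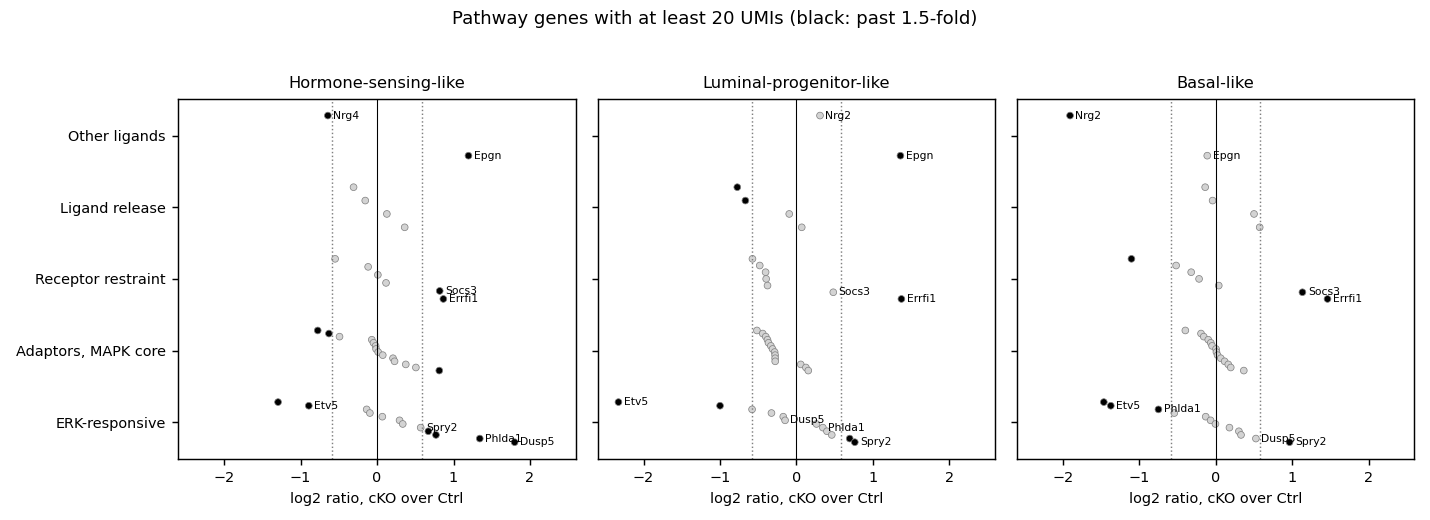
Log2 ratio, cKO over Ctrl, of the pathway genes with at least 20 UMIs, by list and cell class; black points lie past 1.5-fold (dotted lines) and selected genes are named. Errfi1 lay to the right in all 3 classes, Epgn in both luminal classes (in luminal-progenitor-like cells not where gate and cluster had to agree), and the ERK-responsive genes lay on both sides.

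Sites for the microRNAs of the targeted locus were found in some of these genes. The letters searched were CAGTATT, which pairs with the seed of miR-200c-3p, and CAGTGTT, which pairs with that of miR-141-3p; for every gene the longest 3′ untranslated region in GENCODE M21 (GRCm38) was used. Of the 10 genes, 5 held at least 1 site, Tgfa, Btc, Nrg1, Egfr and Erbb4, against 26.9% of 21101 genes. Areg, Ereg, Hbegf, Erbb2 and Erbb3 held none. The share of all genes was not matched for length. The regions of the genes with a site ran from 2069 bases (Btc) to 7855 (Erbb4), and those without from 253 (Areg) to 3501 (Ereg). Errfi1 held 2 sites for miR-200c and 1 for miR-141 within 1390 bases. The sites of Nrg1, Btc and Egfr are shown because these were the EGF-family genes with a site that passed 1.5-fold in at least 1 class, and those of Errfi1 because it did so in 3. They lie on the minus strand of chromosomes 8 and 5 and the plus strand of chromosomes 11 and 4, the capitals mark the match, and the sequences were read from the GENCODE transcripts.
Nrg1, miR-200c, base 186: gcaattttttaCAGTATTtcaaaaaaacg
Nrg1, miR-200c, base 281: ttgctttttcaCAGTATTtcagcgaaacc
Nrg1, miR-141, base 2017: tgctgacttccCAGTGTTgcagagagtgg
Btc, miR-200c, base 1247: tttcatttggtCAGTATTctatagaacgt
Btc, miR-141, base 1428: ttcttctagcaCAGTGTTtataagtaggc
Egfr, miR-200c, base 774: aacaaaaaaccCAGTATTaagtattatca
Egfr, miR-200c, base 833: attcaaaccatCAGTATTgtgaccaaaag
Egfr, miR-141, base 667: cgctagtttacCAGTGTTttctattagac
Errfi1, miR-200c, base 920: tggttcctattCAGTATTtcctggggatt
Errfi1, miR-200c, base 1291: cactgtgtgtaCAGTATTggacaaaggat
Errfi1, miR-141, base 774: gcgctggccatCAGTGTTtggggtctgag
Genes with sites lay past 1.5-fold in both directions. Nrg1 was lower in cKO basal-like and luminal-progenitor-like cells, Btc and Egfr were higher in hormone-sensing-like cells, and Tgfa did not pass 1.5-fold in any epithelial class. Erbb4 had enough UMIs to be counted only among luminal-progenitor-like cells, where its ratio was 1.07, and cells with both luminal sets, where it was 1.04. Of the pathway genes with sites, Errfi1 was higher in all 3 epithelial classes, Grb2, Dusp5, Dusp6 and Phlda1 were higher and Shc1, Spry4 and Etv5 lower in hormone-sensing-like cells, Etv4 and Etv5 were lower in luminal-progenitor-like cells, and Cblb, Dusp4, Etv5 and Phlda1 were lower in basal-like cells. Areg was higher in both luminal classes and held no site.

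The genes whose levels ran most like those of each EGF-family gene were taken from 13121 genes by Pearson correlation of log2(CPM + 1) over 10 points, 5 classes in each library, which share libraries and depth. For Areg these were Hdac11 (r = 0.989), Tmem220 (r = 0.988) and Slc25a39 (r = 0.986), and for Ereg they were Osr1 (r = 0.997), Col17a1 (r = 0.996) and Luzp2 (r = 0.996). For Nrg1 they were Vps37d, Ror1 and Enpp1, for Egfr Pcyt1b, Lgr6 and Cd44, and for Erbb3 Dusp16, Krt19 and Cgn, with r between 0.989 and 0.995.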

How the data were processed

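The deposited values were counts of UMIs per gene and cell barcode from the 10x Chromium 3′ v2 chemistry, made by the authors with no normalization. Cell Ranger 2 and mm10 were used per the submitters' processing notes, while the software version per the file headers is 3.0.0. Barcodes with at least 500 genes and at most 10% mitochondrial UMIs were kept. Scrublet then called 58 cKO and 9 Ctrl cells as doublets, 1.06% and 0.263%, which were removed; the Ctrl rate is under 0.5%, so doublets remained.

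Each cell was scored for each marker list by its mean log(1 + UMIs per 10000), and cuts were placed in the valleys of the score histograms after these were seen. Of cKO and Ctrl cells, 6.13% and 3.35% lay within 0.1 of the hormone-sensing cut and 5.56% and 10.0% within 0.1 of the luminal progenitor cut. Summed counts were scaled to CPM, with exact Poisson intervals for levels, Clopper-Pearson intervals for shares and conditional binomial intervals for ratios, all at 95%. Clusters used Leiden in scanpy 1.11.5 at resolution 0.5. A gene needed 20 UMIs in a class, over both libraries, to be counted, and 1.5-fold to be called. Named pathway genes were up to 3 per list and class with the largest log2 ratios and at least 50 UMIs; the others named, Rhbdf1, Ier3, Etv4 and genes with under 50 UMIs, complete a count. The calculations were tested on simulated data. The genes, lists and rules were chosen with earlier results of these data known. GENCODE M21 matched 30934 of 31053 gene identifiers.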

Additional observations from a re-analysis of the deposited data

Results flagged for a closer look

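Btc and Egfr had ratios that ran in opposite directions in the 2 luminal classes. The log2 ratio of Btc, cKO over Ctrl, was 1.11 in hormone-sensing-like cells and -0.412 in luminal-progenitor-like cells. That of Egfr was 1.09 in hormone-sensing-like cells, from 32 UMIs in cKO and 10 in Ctrl, and -0.289 in luminal-progenitor-like cells. Both pairs of counting intervals lie on opposite sides of 0, with 1 library per group, and the difference between the classes was not tested.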

How the results depend on the processing

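No paired analysis was possible because each group had 1 library and no result came from a test. Of 360 log2 ratios of the 10 genes under 12 alternatives, 318 stayed within the counting interval of the reported value and 40 left it. Part of this was fixed in advance. The minima of 1 UMI and of 50 UMIs changed only which genes were counted, so their ratios could not move. Leaving out a hormone-sensing-like cluster removed no basal-like or blood-endothelial-like cells, and keeping doublet calls added few cells. The other 2, of values past 1.5-fold, changed direction: Areg in blood-endothelial-like cells with classes from clusters (-1.37) and Ereg in luminal-progenitor-like cells under the stricter gate (1.97). Epgn also changed direction, in blood-endothelial-like cells with classes from clusters (-0.96) and in luminal-progenitor-like cells where gate and cluster had to agree (-0.17); these causes were not tested. Over the alternatives the log2 ratio of Areg ranged from 0.58 to 0.95 in hormone-sensing-like and from 0.84 to 1.99 in luminal-progenitor-like cells, that of Erbb3 from -1.15 to -1.03 in hormone-sensing-like cells and that of Nrg1 from -1.13 to -0.93 in basal-like cells.

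Of 116 counts, 12 moved by over 1.5 times. With classes from clusters 1 basal-like gene (Hbegf) was higher, and in blood-endothelial-like cells 0 were higher and 3 lower. Under the stricter gate, and where gate and cluster agreed, 2 hormone-sensing-like genes (Areg and Btc) were higher. In blood-endothelial-like cells a minimum of 1 UMI gave 2 higher and 4 lower, and a minimum of 50 UMIs gave 0 lower there and 1 lower in basal-like cells. In cells of 8000 to 25000 UMIs, 2 luminal-progenitor-like genes (Areg and Hbegf) and 1 basal-like gene (Hbegf) were higher, and 0 blood-endothelial-like genes were lower. The depth window, the agreement of gate and cluster and the left-out hormone-sensing-like cluster were chosen after seeing the data. The leading class differed in 1 case, Hbegf in Ctrl, led by blood-endothelial-like cells with equal weight per cell and in the depth window. Thinning to 2000 UMIs raised 17 of 20 shares, since more molecules were kept. Scaling by trimmed means shifted all log2 ratios of a class by at most 0.107.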
